A study of Mus musculus with 8 samples.

Results

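The genes described here encode collagens, laminins, integrins and matrix glycoproteins, the proteins that make up the basement membranes and the interstitial matrix of the kidney and the receptors through which cells hold on to them. They were chosen by gene name alone, among protein-coding genes with a name beginning Col and a digit, Lama, Lamb or Lamc, Itga, Itgb, Fbln or Sparc, or equal to Fn1, Fbn1, Fbn2, Nid1, Nid2, Tnc, Vtn or a thrombospondin from Thbs1 to Thbs5. Of 105 genes with such a name, 43 stood in rows of the count table that held 8 values, 1 for each library, and these were analysed, among 35880 usable rows of 53715. The other 62 genes stood in rows with 10 values, which could not be assigned to libraries, and they are not analysed here. Among them were fibronectin (Fn1), the laminin chains Lamb1 and Lamb2, the collagen IV chain Col4a5, tenascin C (Tnc), vitronectin (Vtn) and the integrin chains Itgav, Itga3 and Itga6, so most complexes below are seen through some of their chains only. The 43 rows carried 42 symbols, since 2 of them were named Itgam, and 1 gene, Col4a3bp, encodes a ceramide transfer protein and matches by name only.

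The study compared whole kidneys of wild-type mice of the strain C57/BL6J given 1 intraperitoneal injection of cisplatin at 23 mg/kg with kidneys of mice given saline, both taken 72 h after injection, with 4 libraries in each group. The methods describe male mice, and their age is not given in the sources used here. The libraries are named here by the replicate numbers of their labels, control 1, 2, 3 and 5 and cisplatin 1, 3, 4 and 6, and values listed for single libraries are always in that order. Total counts over the usable rows ranged from 10953338 in cisplatin 6 to 16701599 in cisplatin 1. At these totals 3 counts, taken as the floor of measurement, stood for 0.180 to 0.274 CPM by total count alone, before any scaling factor, which covers counting error only. Levels are given as CPM, the read count of a gene relative to the scaled total of its library, with edgeR's TMM factors as scaling, with the mean ± SD over n = 4 libraries.

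Some libraries stood apart before any matrix gene was examined. Control and cisplatin libraries separated on the first principal component, which held 73.6% of the variance, and the second, with 15.96%, set control 5, cisplatin 4 and cisplatin 6 apart from the other 5 libraries. Cisplatin 1 and 3 carried 2 and 0 counts of the Y-linked gene Kdm5d and 3 and 0 of Eif2s3y, against 274 to 576 and 541 to 1333 in the other 6 libraries, which goes against the stated male sex of the mice. For the genes chosen by name, calls that changed without these 2 libraries are given both ways below. Calls of genes outside the name rule are given with all libraries only. Markers of the proximal tubule were abundant in the control kidneys. Their summed level was 80020 CPM in control 1, 72170 in control 2, 80840 in control 3 and 89370 in control 5. In a whole kidney, fewer cells of a type and less RNA in each of its cells cannot be told apart.

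Basement membranes are thin sheets under epithelia and around vessels, built from a network of collagen IV and a network of laminin that nidogens and heparan sulfate proteoglycans tie together. Collagen IV molecules are triple helices of fixed chain make-up. The chains of Col4a1 and Col4a2 form the common network, and those of Col4a3, Col4a4 and Col4a5 form the network of the mature glomerular filter, where loss of any of them causes Alport syndrome. The interstitial matrix between tubules is of another kind, made of fibrils of collagens I and III with small amounts of collagen V and sheathed by fibrillin microfibrils and collagen VI. Integrins are heterodimers of an alpha and a beta chain that bind these proteins at the cell surface.

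Col4a1 and Col4a2 lie head to head, as do Col4a3 and Col4a4, so each pair shares the DNA between or across its start sites. These stretches are shown because the pairs moved in opposite directions after cisplatin. Coordinates are those of GRCm38, and each sequence is from RefSeq (GRCm38.p6), on the plus strand, with a match to the GC box GGGCGG or the CCAAT box in capitals. Col4a4 (ENSMUSG00000067158, chr1:82448423-82586849, minus strand) and Col4a3 (ENSMUSG00000079465, chr1:82586921-82722059, plus strand) are separated by 71 bases, at chr1:82586850-82586920. Col4a1 (ENSMUSG00000031502, chr8:11198423-11312826, minus strand) and Col4a2 (ENSMUSG00000031503, chr8:11312805-11449287, plus strand) overlap by 22 bases of their first exons, at chr8:11312805-11312826. For the fibrillar matrix, the 150 bases before the RefSeq start of Col1a2, at chr6:4505468-4505617, are shown beside them. The count table starts Col1a2 further upstream, at base 4504814, so this stretch lies inside the gene as annotated there.
Col4a4 to Col4a3, between the start sites: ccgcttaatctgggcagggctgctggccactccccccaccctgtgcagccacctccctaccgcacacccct
Col4a1 and Col4a2, overlap of the first exons: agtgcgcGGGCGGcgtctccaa
Col1a2, upstream of the RefSeq start site: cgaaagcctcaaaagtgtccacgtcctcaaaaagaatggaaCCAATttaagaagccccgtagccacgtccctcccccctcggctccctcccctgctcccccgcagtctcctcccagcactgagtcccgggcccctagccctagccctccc

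The 3 stretches were searched on both strands for the CCAAT box, the GC box (GGGCGG) and the TATA box (TATAAA), and no 2 matches overlapped. None of the 3 motifs was found in the 71 bases between Col4a4 and Col4a3, where G and C made up 69% of bases. Of 32851 mouse promoters, 13.3% held CCAAT, 20.7% GGGCGG and 4.41% TATAAA in the 71 bases before the start site. The Col4a1 and Col4a2 overlap held GGGCGG, which 4.09% of promoters held in the 22 bases from their start site. The Col1a2 stretch held CCAAT, as did 24.5% of promoters in a window of 150 bases. These matches describe the letters in the windows only.

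After cisplatin, most of the matrix genes that passed the test had moved upwards. Of the 41 members that passed edgeR's expression filter, 19 were up-regulated and 5 down-regulated by the study's thresholds (adjusted P below 0.05, log2 fold change, log2 FC, of 1 or more in size), whereas 17 were not called. That is 46.3% up and 12.2% down, beside 19.2% up-regulated and 15.7% down-regulated among all 9141 genes tested. The median log2 FC of the members was 0.96 against 0.08 for all genes. In 16 members every cisplatin library was above every control library, and in 7 every cisplatin library was below, beside 23.7% and 22.5% of all genes. These counts depend on the scaling. With total library size in place of TMM the median of all genes shifted to 0.64, the calls among all genes went from 55.0% to 79.8% up-regulated, and 27 members were up-regulated and 4 down-regulated, beside 34.7% and 8.78% of all genes under that scaling. The 8 members added were Itgb1, Itga7, Itga9, Lamc1, Nid1, Col4a6, Col8a1 and Fbln1. Without the 2 cisplatin libraries that lacked Y-linked counts, 16 members were up-regulated, all of them among the 19, and 7 down-regulated, including the 5. The 2 members outside the filter were the second row named Itgam, with at most 2 counts in a library, and Col9a1, with 2 counts in cisplatin 1 and none elsewhere.

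**Figure D1:**
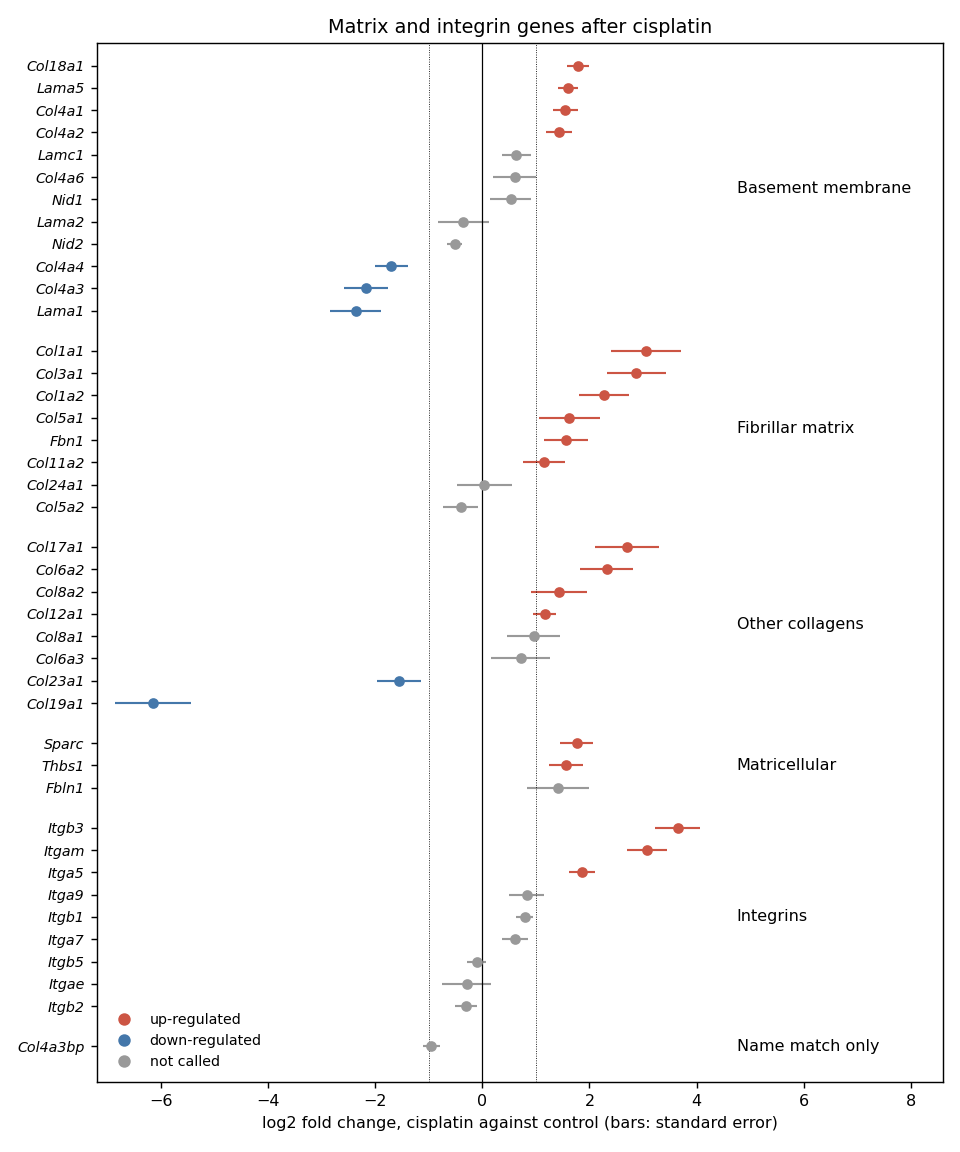
Log2 fold change of each of the 41 members tested, cisplatin against control, on the horizontal axis, with bars for the standard error of the fit and genes grouped by role. Dotted lines mark a log2 fold change of 1 in each direction, and the basement membrane genes are seen on both sides of them (4 up-regulated, 3 down-regulated), whereas the fibrillar matrix genes called (6 of 8) all lie to the right.

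Basement membrane genes moved in both directions, and the fibrillar matrix genes that passed moved up. Of 21 basement membrane genes by name (collagen IV, laminins, nidogens and collagens XV and XVIII), 12 were usable and all were tested. Among these, 4 were up-regulated, 3 were down-regulated and 5 were not called, with a median log2 FC of 0.57 and a range from -2.37 to 1.79. That median was 0.22 without cisplatin 3 and 0.04 without cisplatin 1 and 3. Of 14 fibrillar matrix genes (fibrillar collagens, fibrillins and fibronectin), 8 were usable and tested, 6 were up-regulated and none was down-regulated, with a median of 1.59. These are 33.3% up and 25.0% down for the basement membrane genes and 75.0% up for the fibrillar matrix genes, beside 19.2% and 15.7% of all genes. The other 2 down-regulated members were Col19a1 and Col23a1, among the other collagens.

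Within collagen IV the pair of Col4a1 and Col4a2 and the pair of Col4a3 and Col4a4 went opposite ways. Col4a1, the more abundant chain gene of the common network, was at 510.3, 374, 405 and 463 CPM in the control libraries. After cisplatin it was at 1210.1, 1479, 821 and 1603 CPM, which was 2.92-fold higher in the mean (log2 FC = 1.54, SE = 0.23, adjusted P = 0.000530). Every cisplatin library lay above every control library, with cisplatin 4 the lowest of its group. Its partner Col4a2 went from 356, 274, 273 and 381 to 827, 906, 553 and 1158 CPM (log2 FC = 1.42, SE = 0.24, adjusted P = 0.00104), and cisplatin 4 was again the lowest of the cisplatin libraries. Col4a3, a chain of the glomerular network, moved down, from 601, 492, 783 and 409.9 CPM in control to 151, 219, 75.3 and 59.5 CPM in cisplatin libraries (log2 FC = -2.18, SE = 0.41, adjusted P = 0.00187). The groups were apart, and the lowest levels were in cisplatin 4 and 6, the same libraries that stood apart on the second component. Col4a4 fell with it, from 507, 447, 639.8 and 535 to 198, 246, 122 and 86.2 CPM (log2 FC = -1.70, SE = 0.31, adjusted P = 0.00153). The remaining usable chain gene, Col4a6, was below 12 CPM everywhere and not called (log2 FC = 0.60, adjusted P = 0.237), and its log2 FC was -0.02 without the 2 libraries lacking Y-linked counts and 1.09 in the first library set alone, where it was called (adjusted P = 0.0306).

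Per kilobase of exon, the scale on which genes can be set beside each other, Col4a1 and Col4a3 were at similar levels in control kidneys, at 58.7 and 57.3 CPM per kb, and Col4a2 and Col4a4 at 48.5 and 50.2. In cisplatin kidneys Col4a1 and Col4a2 were at 171 and 130.0 CPM per kb and Col4a3 and Col4a4 at 12.6 and 15.4. The log2 ratio of Col4a1 to Col4a3 counts within a library, which does not depend on scaling between libraries, was -0.24, -0.40, -0.95 and 0.18 in the control libraries. In the cisplatin libraries it was 3.005, 2.76, 3.45 and 4.75, a difference in means of 3.84. No library overlapped, and the exact two-sided permutation test gave P = 0.0286, the smallest that 4 against 4 libraries allow, which became 0.0571 after adjustment over the 6 ratios tested and so did not pass 0.05. By contrast the ratio of Col4a1 to Col4a2 differed by 0.12 between groups (exact permutation P = 0.171, adjusted 0.206). The summed level of the 5 collagen IV genes was 1866 ± 223 in control and 2434 ± 618 in cisplatin kidneys (CPM), so the shift was larger in the make-up of collagen IV transcripts than in their sum.

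Both library sets held the 2 directions. The log2 difference in mean level for Col4a1 was 1.65 within control 1 to 3 against cisplatin 1 and 3, and 1.31 between control 5 and cisplatin 4 and 6. For Col4a3 the same differences were -1.75 and -2.61, and for Col4a4 they were -1.25 and -2.38. The second set has only 1 control library, so its differences carry no replicate error on that side. Without cisplatin 1 and 3 all 4 genes kept their calls (Col4a1 log2 FC = 1.47, adjusted P = 0.0019, Col4a3 log2 FC = -3.08, adjusted P = 0.000159, Col4a4 log2 FC = -2.34, adjusted P = 0.000136, in edgeR). Exons of Col4a3 overlap an antisense gene, C430014B12Rik, over 5.65% of their length, and whether strand was used in counting is not given in the sources used here.

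**Figure D2:**
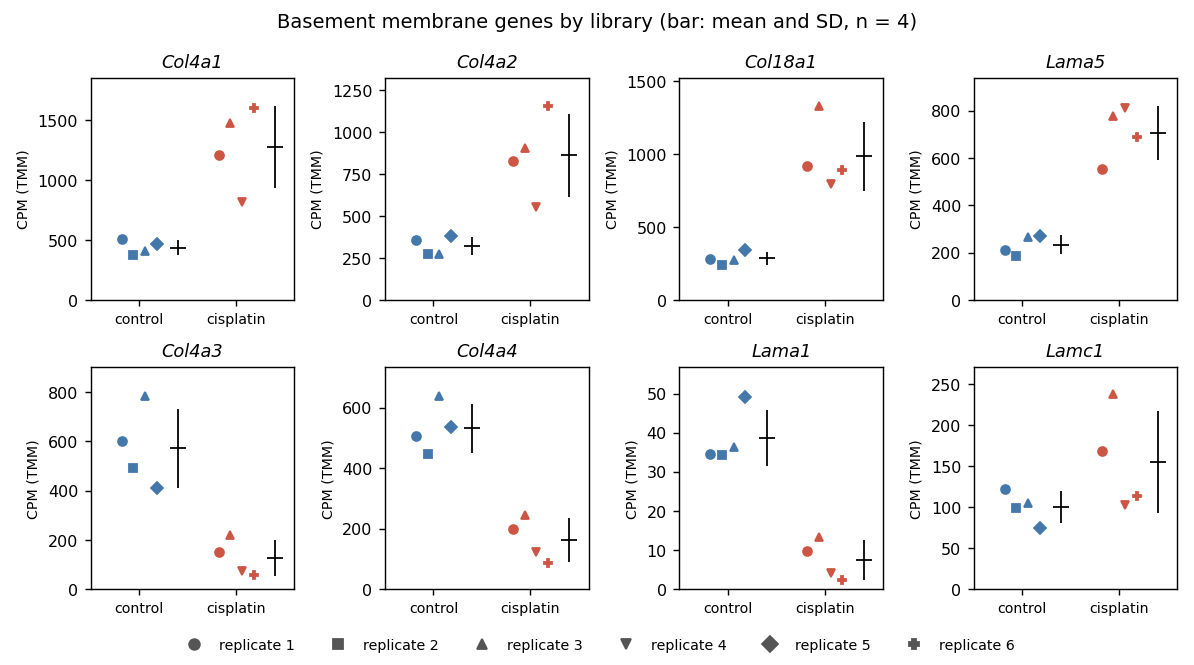
TMM-scaled CPM (vertical axis, from 0) of 8 basement membrane genes in each control and cisplatin library, with marker shape for the replicate number and a bar for the mean ± SD of n = 4. The upper row shows genes with all cisplatin libraries above all control libraries (Col4a1 from at most 510.3 to at least 821 CPM), and in the lower row Col4a3, Col4a4 and Lama1 show the reverse while Lamc1 overlaps.

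Laminins are trimers of an alpha, a beta and a gamma chain, and the alpha chains too went in opposite directions. Lama5 (ENSMUSG00000015647, chr2:180176373-180225859, minus strand), the alpha chain of the mature glomerular and most tubular and vascular basement membranes, was up-regulated, from 212, 186, 265 and 271 to 554, 776, 811 and 689 CPM (log2 FC = 1.60, SE = 0.20, adjusted P = 0.000149). Here cisplatin 4 was the highest treated library and cisplatin 1 the lowest, whereas cisplatin 4 was the lowest for both common collagen IV chains. Lama1 (ENSMUSG00000032796, chr17:67697265-67822645, plus strand), the alpha chain found early in kidney development and later in tubular basement membranes, was down-regulated from 34.5, 34.3, 36.3 and 49.2 to 9.64, 13.4, 4.17 and 2.30 CPM (log2 FC = -2.37, SE = 0.47, adjusted P = 0.00241). Its level in cisplatin 4 and 6 was the lowest, and control 5 was the highest of the controls. The log2 ratio of Lama1 to Lama5 was -2.62, -2.44, -2.87 and -2.46 in control and -5.84, -5.85, -7.59 and -8.20 in cisplatin libraries, a difference of -4.28 (exact permutation P = 0.0286, adjusted 0.0571). All 8 values fell within 2 separate ranges by group, and the difference was -5.3 without cisplatin 1 and 3, where the log2 FC of Lama1 was -3.55. Within the library sets the log2 difference of Lama1 was -1.58 in the first and -3.78 in the second.

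The other usable laminin chains did not pass. Lamc1, the gamma chain of most laminins, was at 122, 99.0, 105 and 74.1 CPM in control and 168, 238, 102 and 113 CPM in cisplatin libraries (log2 FC = 0.64, SE = 0.28, adjusted P = 0.0824), where only cisplatin 1 and 3 were above all controls. Without those 2 libraries its log2 FC was 0.11. Lama2, the alpha chain of muscle and mesangial laminin, was at 37.4, 41.9, 14.3 and 16.7 CPM in control and 28.7, 30.0, 6.74 and 20.5 CPM in cisplatin libraries (log2 FC = -0.35, SE = 0.48, adjusted P = 0.572), and its sign turned to 0.22 with total library size. The beta chains are not analysed here. Summed over Lama1, Lama2, Lama5 and Lamc1, laminin transcripts were at 399.9 ± 26.8 in control and 892 ± 129 in cisplatin kidneys (CPM), and Lama5 made up 58.4% of the control and 79.3% of the cisplatin sum.

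Of the genes that link the collagen IV and laminin networks, Col18a1 rose and the nidogens were not called. Col18a1 (ENSMUSG00000001435, chr10:77052178-77166548, minus strand), whose product is a basement membrane proteoglycan core and the source of endostatin, went from 279, 239, 276 and 345 to 916, 1329.8, 797 and 893 CPM (log2 FC = 1.79, SE = 0.21, adjusted P = 0.000127). Every cisplatin library was above 790 CPM against at most 345 CPM in the controls, and the log2 difference was 2.06 in the first and 1.29 in the second library set. Nid1 was at 145, 145, 67.0 and 60.1 CPM in control and 182, 178, 68.7 and 172 CPM in cisplatin libraries (log2 FC = 0.53, SE = 0.38, adjusted P = 0.276), with control 3, control 5 and cisplatin 4 all near the same low level. Nid2 was at 46.7, 46.9, 41.3 and 54.0 CPM in control and 34.3, 34.3, 29.0 and 34.3 CPM in cisplatin libraries (log2 FC = -0.52, SE = 0.15, adjusted P = 0.0146), lower in every cisplatin library but short of the fold change threshold, and with total library size its log2 FC was 0.05. Exons of Nid2 overlap those of Rtraf on the other strand over 8.45% of their length.

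Most genes of the interstitial fibrils rose. Col1a1 (ENSMUSG00000001506, chr11:94936224-94953042, plus strand) and Col1a2 (ENSMUSG00000029661, chr6:4504814-4541544, plus strand), which encode the 2 chains of collagen I, and Col3a1 (ENSMUSG00000026043, chr1:45311538-45349706, plus strand) had the largest log2 FC among the fibrillar matrix genes. Col1a1 was at 65.3, 60.1, 14.4 and 20.99 CPM in control and 509.9, 502, 87.6 and 233 CPM in cisplatin libraries, 8.29-fold higher in the mean (log2 FC = 3.05, SE = 0.65, adjusted P = 0.00370). The groups did not overlap, but both were split inside: control 3 and 5 were well below control 1 and 2, and cisplatin 4 was close to control 1. Col1a2 went from 113, 98.8, 38.4 and 64.3 to 586, 459, 133 and 344 CPM (log2 FC = 2.28, SE = 0.47, adjusted P = 0.00293) and Col3a1 from 74.1, 75.1, 17.6 and 31.5 to 473, 413, 120.5 and 445 CPM (log2 FC = 2.87, SE = 0.55, adjusted P = 0.00206). Their order over the libraries was like that of Col1a1, with cisplatin 4 the lowest of the treated and control 3 the lowest of the control libraries. The log2 ratio of Col1a1 to Col3a1 differed by 0.09 between the groups (exact permutation P = 0.8, adjusted 0.8).

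Within the library sets, the log2 difference of Col1a1 was 3.70 in the first and 2.74 in the second, and that of Col3a1 was 3.24 and 2.86. Without cisplatin 1 and 3 the log2 FC of Col1a1 was 1.99 (edgeR, adjusted P = 0.0272), that of Col1a2 was 1.59 (adjusted P = 0.0202) and that of Col3a1 was 2.50 (adjusted P = 0.0118). Col5a1, the gene of a collagen V chain that starts fibrils, was at 23.6, 25.5, 4.40 and 17.3 CPM in control and 74.9, 80.6, 17.1 and 45.4 CPM in cisplatin libraries (log2 FC = 1.62, SE = 0.57, adjusted P = 0.0376), and cisplatin 4 lay among the controls. Its call was also lost when any of 6 single libraries was left out. Fbn1, the fibrillin of elastic microfibrils, was at 22.3, 27.8, 9.86 and 12.9 CPM in control and 65.6, 63.5, 22.0 and 63.7 CPM in cisplatin libraries (log2 FC = 1.56, SE = 0.41, adjusted P = 0.0108), again with cisplatin 4 below the highest control. Without cisplatin 1 and 3 neither was called, with a log2 FC of 0.81 for Col5a1 (adjusted P = 0.294) and 1.23 for Fbn1 (adjusted P = 0.0662). Exons of Fbn1 overlap the antisense gene Gm9913 over 20.1% of their length. Col11a2 was also up-regulated, with a log2 FC of 1.15 and overlapping groups, a call lost without any of 6 single libraries. Col5a2, a second collagen V chain gene, did not follow Col5a1, at 61.1, 53.4, 93.4 and 55.4 CPM in control and 62.8, 63.1, 21.7 and 50.9 CPM in cisplatin libraries (log2 FC = -0.41, SE = 0.32, adjusted P = 0.325), and its log2 FC was 0.18 with total library size. Col24a1 had a log2 FC of 0.03, and its sign depended on the setting.

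**Figure D3:**
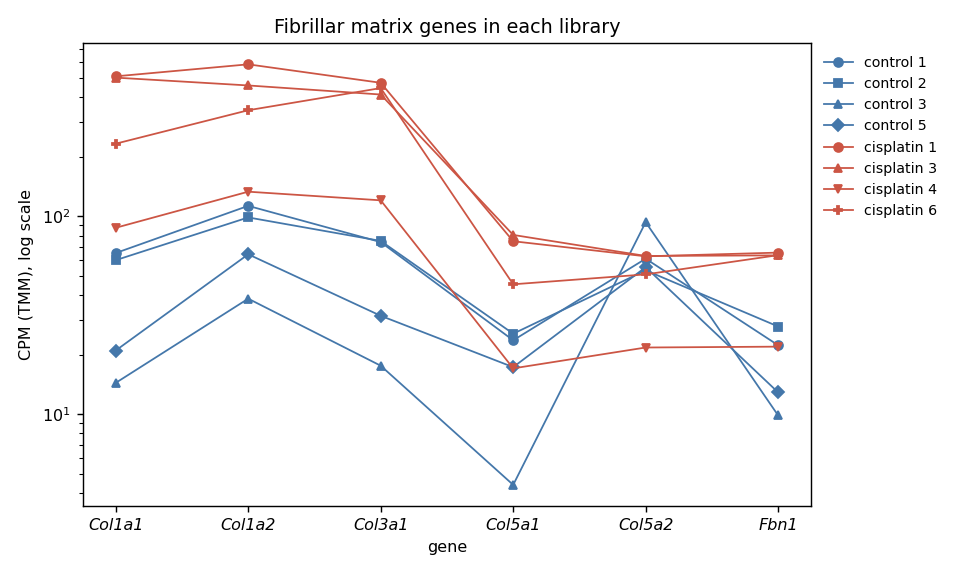
TMM-scaled CPM on a log axis of 6 fibrillar matrix genes, 1 line per library, blue for control and red for cisplatin. Cisplatin 1, 3 and 6 lie above all controls for Col1a1, Col1a2, Col3a1, Col5a1 and Fbn1, cisplatin 4 lies just above control 1 for Col1a1 (87.6 against 65.3 CPM) and among the controls for Col5a1 and Fbn1, and Col5a2 does not separate the groups.

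Set against each other, the median log2 FC of basement membrane genes was 1.03 below that of fibrillar matrix genes (difference -1.03). This difference was between -1.22 and -0.90 when any 1 library was left out, and -1.33 without cisplatin 1 and 3. Taken library by library, relative to the control mean, the basement membrane median minus the fibrillar median was -0.43, -0.74, 0.74 and 0.34 in the control libraries and -1.53, -1.07, -0.84 and -1.77 in the cisplatin libraries. All cisplatin values were the lower, but those of cisplatin 4 and control 2 were -0.84 and -0.74, a gap smaller than the SD within groups of 0.57. Since the name rule itself was set with earlier results of these data known, no test was made of a score over its members. For a single ratio across the 2 kinds of matrix, that of Col1a1 to Col4a1, the log2 values were -2.97, -2.64, -4.81 and -4.46 in control and -1.25, -1.56, -3.23 and -2.78 in cisplatin libraries. The difference of 1.51 did not pass the test (exact permutation P = 0.143, adjusted 0.206), and cisplatin 4 and 6 fell within the control range. It was 0.71 without cisplatin 1 and 3.

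The other collagens were mixed, with 4 of the 8 tested up-regulated (50.0%), 2 down-regulated (25.0%) and 2 not called. Among all genes 19.2% were up-regulated and 15.7% down-regulated. Col6a2, a chain gene of the beaded filaments of collagen VI, went from 20.4, 24.3, 8.19 and 15.3 to 137, 112, 26.8 and 65.5 CPM (log2 FC = 2.33, SE = 0.50, adjusted P = 0.00367). Its lowest treated library, cisplatin 4, lay just above the highest control, and its log2 FC was 1.43 without cisplatin 1 and 3. Col6a3, a chain of the same protein, was at 44.9, 42.9, 13.7 and 26.7 CPM in control and 84.1, 81.0, 13.9 and 31.2 CPM in cisplatin libraries (log2 FC = 0.72, SE = 0.55, adjusted P = 0.307) and not called. Its log2 FC was -0.51 without cisplatin 1 and 3, whereas it was called up-regulated in the first library set alone (log2 FC = 1.23, adjusted P = 0.0341). Col12a1, a collagen on the surface of fibrils, rose from 16.03, 16.3, 11.9 and 13.1 to 33.3, 34.9, 21.9 and 38.2 CPM (log2 FC = 1.16, SE = 0.21, adjusted P = 0.00157), without overlap. Col17a1, the transmembrane collagen of hemidesmosomes, had 2, 4, 4 and 1 counts in control and 24, 55, 11 and 12 counts in cisplatin libraries (log2 FC = 2.70, SE = 0.60, adjusted P = 0.00458). These are low counts, and cisplatin 3 was far above the others. Col23a1, a transmembrane collagen, was down-regulated from 7.88, 8.77, 4.40 and 6.68 to 2.05, 4.29, 1.39 and 1.59 CPM (log2 FC = -1.56, SE = 0.41, adjusted P = 0.0103). This call was lost with total library size (log2 FC = -0.98, adjusted P = 0.0678). It was also lost with the replicate number as a block (log2 FC = -0.98, adjusted P = 0.0681). Col19a1, a minor collagen of basement membrane zones, had 38, 57, 79 and 61 counts in the control libraries against 4 counts in cisplatin 1 and none in the other 3 (edgeR, adjusted P = 0.000114), and no fold is given because the fitted value depends on the prior count. Col8a2, a short-chain collagen, was called at a log2 FC of 1.43 with overlapping groups (adjusted P = 0.0446), and not without cisplatin 1 and 3 (log2 FC = 1.23, adjusted P = 0.134).

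Of the 3 matricellular glycoprotein genes tested, whose products bind matrix and cells without building fibrils, 2 were up-regulated (66.7%) and none was down-regulated. The shares over all genes were 19.2% and 15.7%. Sparc (ENSMUSG00000018593, chr11:55394500-55423183, minus strand), a collagen-binding glycoprotein, had the highest level of all members per kilobase after treatment, at 199 CPM per kb against 58.7 in control. In single libraries it went from 280.4, 260.3, 203 and 146 to 917, 833, 377 and 882 CPM (log2 FC = 1.76, SE = 0.31, adjusted P = 0.00136). The groups did not overlap, with cisplatin 4 far below the other 3. Thbs1, thrombospondin 1, an activator of latent TGF-beta, went from 112, 128, 125 and 83.7 to 471, 395, 147 and 314 CPM (log2 FC = 1.56, SE = 0.32, adjusted P = 0.00309). In cisplatin 4 it was 147 CPM, near the highest control at 128 CPM, and without cisplatin 1 and 3 the log2 FC of Thbs1 was 1.04. Fbln1, fibulin 1, was at 14.2, 16.7, 5.38 and 8.96 CPM in control and 62.5, 32.8, 8.05 and 16.8 CPM in cisplatin libraries and did not pass (log2 FC = 1.42, adjusted P = 0.0676). It was called under 7 alternatives, among them DESeq2 (log2 FC = 1.35, adjusted P = 0.0316) and without cisplatin 4 (log2 FC = 1.73), whereas its log2 FC was 0.13 without cisplatin 1 and 3.

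Of 28 rows of integrin genes, 10 were usable and 9 tested, of which 3 were up-regulated (33.3%, beside 19.2% of all genes) and none was down-regulated, with a median log2 FC of 0.79. Itgb1, the beta chain shared by most receptors for collagen, laminin and fibronectin, was the most abundant integrin gene per kilobase, at 101 CPM per kb in control kidneys. It was at 439, 448, 379 and 378 CPM in control and 795, 696, 611 and 733 CPM in cisplatin libraries, higher in every cisplatin library but below the fold change threshold (log2 FC = 0.79, SE = 0.16, adjusted P = 0.00251), and it was called with total library size (log2 FC = 1.35). Its partner Itga5 (ENSMUSG00000000555, chr15:103344286-103366763, minus strand), with which it forms the classical fibronectin receptor, was up-regulated from 19.9, 17.0, 15.5 and 17.8 to 76.8, 62.7, 36.6 and 79.9 CPM (log2 FC = 1.87, SE = 0.24, adjusted P = 0.000227). All 4 controls were within 15.5 to 19.9 CPM, and the lowest treated library, cisplatin 4, was at 36.6 CPM. Itgb3 (ENSMUSG00000020689, chr11:104608000-104670476, plus strand), a beta chain of receptors for the RGD motif of vitronectin, osteopontin and fibronectin, had the largest log2 FC among the integrins. Its level was 4.34, 1.68, 3.56 and 1.42 CPM in control and 26.7, 35.97, 21.9 and 53.0 CPM in cisplatin libraries, 12.5-fold higher in the mean (log2 FC = 3.65, SE = 0.43, adjusted P = 0.000120). Every treated library was above 20 CPM and no control reached 5 CPM. Itgb5, another beta chain that pairs with the product of Itgav, was at 58.1 CPM per kb in control kidneys beside 0.466 for Itgb3. It was not called, at 188, 192, 178 and 224 CPM in control and 222, 199.6, 134 and 169 CPM in cisplatin libraries (log2 FC = -0.11, SE = 0.18, adjusted P = 0.644), with a log2 FC of 0.47 with total library size. The alpha chains Itga7, a laminin receptor, and Itga9 were not called (log2 FC = 0.61 and 0.82, adjusted P = 0.0605 and 0.0589).

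The leukocyte integrins did not move as a pair. Itgam (ENSMUSG00000030786, chr7:128062640-128118491, plus strand), the alpha chain of the receptor Mac-1 on neutrophils and macrophages, had 12, 13, 9 and 21 counts in control and 298, 144, 85 and 124 in cisplatin libraries, or 1.06, 1.04, 0.683 and 1.65 against 13.6, 7.92, 6.22 and 9.83 CPM (log2 FC = 3.07, SE = 0.37, adjusted P = 0.000144). Its exons overlap those of the second row named Itgam, annotated as Gm49368, over 68.7% of their length, so reads shared by both may be missing from its count. Itgb2, the beta chain with which Itgam must pair and which other leukocyte integrins share, was at 12.8, 14.4, 14.5 and 15.6 CPM in control and 11.9, 11.8, 8.20 and 14.2 CPM in cisplatin libraries and was not called (log2 FC = -0.31, SE = 0.21, adjusted P = 0.233), and with total library size its log2 FC was 0.26. Within libraries the log2 ratio of Itgb2 to Itgb1 was -5.10, -4.95, -4.71 and -4.60 in control and -6.06, -5.88, -6.21 and -5.69 in cisplatin libraries, a difference of -1.12 without overlap (exact permutation P = 0.0286, adjusted 0.0571). Itgae, the integrin chain of intraepithelial lymphocytes, was low and not called over all libraries (log2 FC = -0.30, adjusted P = 0.621). Col4a3bp, the member by name only, was lower in every cisplatin library (log2 FC = -0.95, adjusted P = 0.000802) but below the fold change threshold, and both it and Itgae were called down-regulated without cisplatin 1 and 3.

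**Figure D4:**
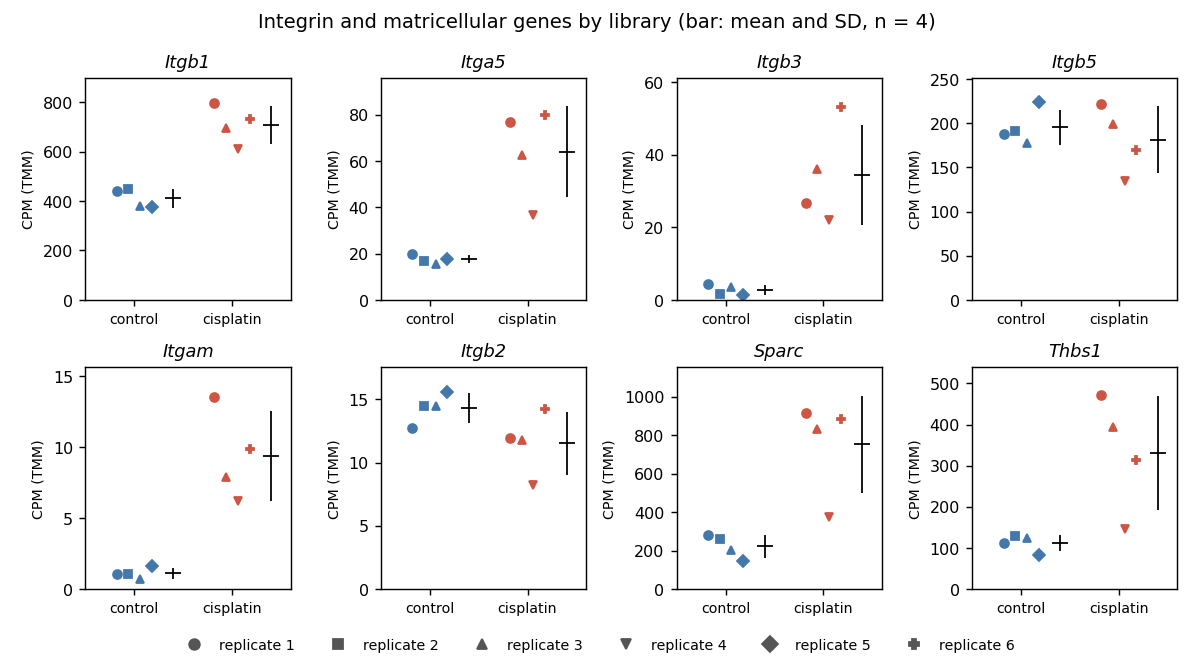
TMM-scaled CPM (vertical axis, from 0) of 6 integrin chain genes and 2 matricellular genes in each control and cisplatin library, with marker shape for the replicate number and a bar for the mean ± SD of n = 4. Itgb1, Itga5, Itgb3, Itgam, Sparc and Thbs1 separate the groups, whereas Itgb5 and Itgb2 overlap, and cisplatin 4 is the lowest treated library in every panel.

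Genes outside the name rule that make, modify or bind the same proteins were examined as 4 further lists, whose counts are again to be set beside 19.2% up-regulated and 15.7% down-regulated among all genes. Of 29 enzymes and chaperones of collagen assembly, 17 were usable and 16 tested, with 5 up-regulated (31.2%), 3 down-regulated (18.8%) and a median log2 FC of 0.55. Lox, the oxidase that cross-links fibrillar collagen, went from 6.64, 8.22, 2.28 and 3.15 to 108, 96.8, 25.0 and 93.0 CPM (log2 FC = 3.99, SE = 0.55, adjusted P = 0.000293). Adamts2, which removes the amino-terminal propeptide of fibrillar procollagens, went from 6.29, 7.10, 2.20 and 4.95 to 53.7, 37.0, 18.6 and 52.1 CPM (log2 FC = 2.98, SE = 0.43, adjusted P = 0.000382), and Bmp1, which removes the other propeptide, was up-regulated with a log2 FC of 1.81 (adjusted P = 0.000344). These enzymes of fibril assembly were high in all treated libraries, with cisplatin 4 the lowest for each. P3h2, a prolyl 3-hydroxylase that acts on collagen IV, went the other way, from 184, 164, 189 and 162 to 64.4, 78.9, 33.5 and 32.3 CPM (log2 FC = -1.74, SE = 0.29, adjusted P = 0.000934). Colgalt2, a collagen galactosyltransferase, and Tll1, a relative of Bmp1, were also down-regulated, with log2 FC of -1.26 and -1.22 (adjusted P = 0.00570 and 0.0499).

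Of 14 basement membrane genes outside the rule, 8 were usable and tested, 2 were up-regulated (25.0%) and none was down-regulated. Agrn, the proteoglycan agrin, abundant in the glomerular basement membrane, went from 234, 183, 251 and 352 to 482, 841, 674 and 495 CPM (log2 FC = 1.29, SE = 0.26, adjusted P = 0.00249), and Papln had a log2 FC of 1.13 (adjusted P = 0.0150). Hspg2, perlecan, was the other abundant gene of that list and was not called (log2 FC = 0.13, adjusted P = 0.577). Of 32 interstitial matrix genes, 13 were usable and tested, 6 were up-regulated (46.2%) and none was down-regulated, with a median log2 FC of 1.01. Spp1, osteopontin, a secreted ligand of RGD-binding integrins, went from 1008, 943, 1055 and 900.1 to 23827, 23681, 10436 and 8665 CPM (log2 FC = 4.09, SE = 0.40, adjusted P = 4.32e-05). All treated libraries were far above the controls, and cisplatin 4 and 6 were the lower of them. Vcan, the proteoglycan versican, and Mfap5, a microfibril protein, followed with log2 FC of 2.89 and 2.69 (adjusted P = 0.00206 and 0.0194). Mfap5 was low, at 0.531, 0.239, 0 and 0.865 CPM in control and 5.46, 2.53, 0.878 and 1.67 CPM in cisplatin libraries. Its level in cisplatin 4 was barely above that in control 5.

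Of 24 other matrix receptors and proteins of the adhesion plaque inside the cell, 14 were usable and tested, 2 were up-regulated (14.3%) and 1 was down-regulated (7.14%), both shares below those of all genes, with a median log2 FC of 0.27. Actn1, alpha-actinin 1, which cross-links actin at adhesions, went from 63.7, 57.8, 50.7 and 43.7 to 429.6, 552, 277 and 285 CPM (log2 FC = 2.84, SE = 0.26, adjusted P = 2.97e-05), and Cd44, a hyaluronan and osteopontin receptor, had a log2 FC of 2.79 (adjusted P = 0.00151). Tln2, a talin that links integrin tails to actin, fell from 338, 297, 352 and 434 to 47.0, 40.9, 16.6 and 21.4 CPM (log2 FC = -3.49, SE = 0.34, adjusted P = 4.44e-05). Its relative Tln1 was not called (log2 FC = -0.54, adjusted P = 0.0229).

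Markers of the cell types that carry these genes were measured beside them. Their counts too are to be set beside 19.2% up-regulated and 15.7% down-regulated among all genes. Of the fibroblast and mural cell markers, 5 of 15 were usable (Des, Cspg4, Cnn1, Tcf21 and Thy1), none was called, and their summed level was 90.9, 100.4, 63.5 and 125 CPM in control and 106, 92.4, 63.3 and 101 CPM in cisplatin libraries. Over the same libraries the 7 fibrillar collagen genes summed to 340.1, 315, 172 and 193 CPM and then to 1710.0, 1524, 386 and 1123 CPM. The collagen sum was thus higher in every cisplatin library while the marker sums overlapped, and cisplatin 4 and control 3 were the lowest of their groups in both. Of the 5 markers, 2 were nevertheless lower in every cisplatin library than in any control, beside 22.5% of all genes. Cspg4 was at 42.1, 40.9, 39.5 and 55.0 CPM in control and 27.4, 37.0, 27.8 and 23.7 CPM in cisplatin libraries (log2 FC = -0.61, adjusted P = 0.0209). It was the most abundant marker in control kidneys, at 46.7% of the sum, and made up 32.0% in cisplatin kidneys. There Des was higher than Cspg4, at 38.5 against 29.0 CPM in the mean. Thy1 was at 4.87, 6.30, 4.78 and 4.25 CPM in control and 3.46, 3.52, 1.02 and 3.09 CPM in cisplatin libraries (log2 FC = -0.85, adjusted P = 0.0865). Des and Cnn1 were higher on average, with log2 FC of 0.82 and 0.75 (adjusted P = 0.223 and 0.0964). Tcf21 had a log2 FC of -0.45 (adjusted P = 0.310).

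For the podocyte, the cell that makes the Col4a3 and Col4a4 chains of the glomerular filter, 6 of 10 markers were usable. Which cells carried the Col4a3 and Col4a4 transcripts in these whole kidneys was not measured. Of the 6 podocyte markers, 1 was up-regulated (Cdkn1c) and none was down-regulated. Their sum was 636, 610.3, 832 and 418 CPM in control and 688, 698, 453 and 656 CPM in cisplatin libraries, with Podxl as 73.8% of it over all 8 libraries. Nphs1, nephrin of the slit diaphragm, was at 51.3, 39.0, 78.5 and 36.6 CPM in control and 52.1, 60.4, 55.3 and 59.4 CPM in cisplatin libraries (log2 FC = 0.14, adjusted P = 0.640), so Nphs1 and the podocyte sum overlapped between groups where Col4a3 and Col4a4 did not. Magi2, a scaffold protein of the slit diaphragm, was lower on average, at 29.9, 26.8, 37.5 and 14.9 CPM in control and 14.3, 16.6, 9.74 and 17.8 CPM in cisplatin libraries (log2 FC = -0.90, adjusted P = 0.0289), short of the fold change threshold. Of 14 endothelial markers, 6 were usable, 1 was up-regulated (Cldn5) and none was down-regulated, with sums of 747, 708, 675 and 513 CPM in control and 606, 529.7, 298 and 677 CPM in cisplatin libraries and Plvap as 40.3% over all 8 libraries. The other 5 had a log2 FC below 0, and Kdr, the receptor for VEGF, was lower in every cisplatin library (log2 FC = -0.94, adjusted P = 0.0152). All 16 usable proximal tubule markers were down-regulated. Their sum fell to 2153, 1740.0, 9957 and 15760.0 CPM, with cisplatin 1 and 3 the lowest. Cisplatin 1 and 3 also lacked Y-linked counts, so a larger fall there cannot be told apart from a difference in sex. Kap made up 40.1% of the control and 60.9% of the cisplatin sum, and it was at 544, 229, 6220.4 and 11022 CPM in the single cisplatin libraries. Most other markers of the list were likewise lower in cisplatin 1 and 3 than in cisplatin 4 and 6, such as Slc34a1 at 119, 94.6, 427 and 652 CPM, whereas Gatm, Lrp2, Slc5a12 and Aqp1 were not.

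Of 26 leukocyte markers, 15 were usable, 5 were up-regulated (Cd14, S100a8, S100a9, Cxcr2 and Cd79a) and 4 down-regulated (Ptprc, Cx3cr1, Cd8a and Nkg7). These are 33.3% and 26.7%, beside 19.2% and 15.7% of all genes. Laptm5 was the most abundant in control kidneys, at 24.6% of the sum, and made up 17.3% in cisplatin kidneys. There Cd14 was higher than Laptm5, at 81.2 against 41.9 CPM in the mean. The sum over the 15 markers was 211 ± 26.6 in control and 242 ± 39.4 in cisplatin kidneys (CPM). Cd14 alone went from 7.76 to 81.2 CPM in the mean (log2 FC = 3.39, adjusted P = 3.38e-06). Without Cd14 the mean sum of the other markers was lower in cisplatin than in control kidneys. The neutrophil genes S100a8, S100a9 and Cxcr2 were up-regulated, as was Itgam. These marker calls rest on low counts, at most 69 of S100a8, 106 of S100a9 and 60 of Cxcr2 in any library. Csf3r of the same cells was not called (log2 FC = 0.91, adjusted P = 0.0205). Among the treated libraries S100a8 and S100a9 were lowest in cisplatin 1, where Itgam was highest. The pan-leukocyte gene Ptprc was at 32.4, 33.7, 36.5 and 22.4 CPM in control and 20.7, 11.7, 5.49 and 7.93 CPM in cisplatin libraries (log2 FC = -1.44, adjusted P = 0.0102). None of the markers in these lists was at 0 in all libraries. Platelet markers, which would bear on Itgb3, are not analysed here, as none of the 5 was usable. The part of any cell type in the matrix results was not tested.

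**Figure D5:**
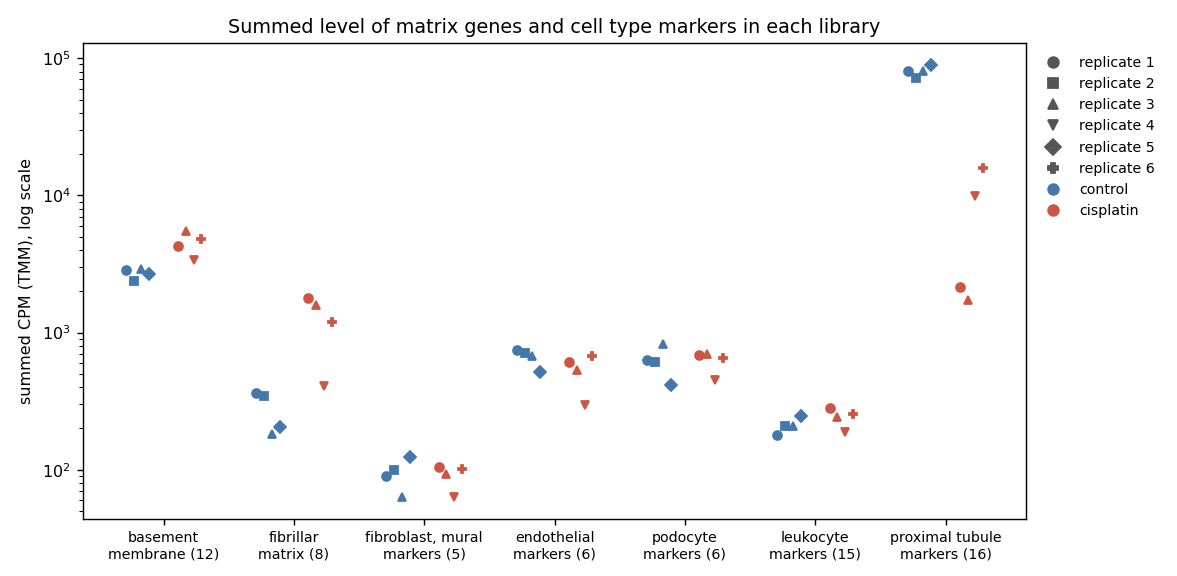
Summed TMM-scaled CPM on a log axis of the basement membrane genes, the fibrillar matrix genes and 5 lists of cell type markers in each library, blue for control and red for cisplatin, with marker shape for the replicate number and the number of genes in parentheses. Both matrix sums lie higher in every cisplatin library than in any control, the proximal tubule sum lies lower in every one, and the fibroblast, endothelial, podocyte and leukocyte sums overlap between groups.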

How the data were processed

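Bulk RNA-seq libraries of 4 control and 4 cisplatin kidneys were used. Per the submitters' processing notes and the methods, the authors trimmed reads with fastp, mapped them with HISAT2 to the GRCm38 genome and deposited unnormalized gene counts, with a gene length of their own annotation that serves here only for levels per kilobase. The labels name a kit that marks strand and the methods name another, and the counter and its strand setting are not given in the sources used here. Of 53715 rows, 17835 held 10 values against 8 named libraries and were left out, and the 2 unnamed extra columns were used in no step. Groups and replicate numbers came from the labels, and the paper gives 4 mice per group for the sequencing. All 43 gene identifiers were found in GENCODE M21, 41 with the same start, end and strand. Of the 42 symbols, 29 had an entry among the RefSeq promoters.

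Counts were tested in edgeR 4.0.16 (R 4.3.3) with its default expression filter, TMM factors (0.785 to 0.854 in control and 1.15 to 1.32 in cisplatin libraries) and the quasi-likelihood test, cisplatin against control with no covariate, and P values were adjusted by Benjamini-Hochberg over all 9141 genes. A call needed an adjusted P below 0.05 and a log2 FC of 1 or more in size. Adjusted P values are from this test unless they belong to a ratio or to a named alternative, whose own edgeR fit then gave them. The SE is the absolute log2 FC divided by the square root of F. Ratios within a library were taken after adding 0.5 to each count and compared by an exact permutation test over 70 splits. Differences within the library sets are of mean log2 levels. On simulated counts with 200 of 9075 genes changed by a log2 FC of 2, edgeR recovered 83% and called 6 unchanged genes. DESeq2 1.42.0 recovered 91.5% and called 22. The simulated counts held no library sets and far fewer changed genes than were called in the kidneys, so these rates need not carry over.

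The genes and lists were chosen with earlier results of these data known. Genes were named, within each role list, as the called members with the largest change, a mean level of 1 CPM or more and groups that did not overlap (up to 4 per direction), the most abundant member per kilobase and the partner chains of obligate complexes, with up to 3 called genes per direction from each list outside the name rule. Other members named were chosen after their values were seen. Alternatives were other normalizations, filters and tests, DESeq2, a replicate block, the library sets, and leaving out libraries.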

Additional observations from a re-analysis of the deposited data

Results flagged for a closer look

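In 7 of the 82 groups of 4 values, 1 library lay far from the other 3, by a gap to its nearest neighbour beyond Dixon's 95% critical value for 4 samples. Chance alone would give this in about 1 group in 20. Cisplatin 4 was such a library for 4 genes, with 377 CPM of Sparc, 68.7 CPM of Nid1, 29.0 CPM of Nid2 and 22.0 CPM of Fbn1, each the lowest of its group. Control 5 was the highest control for Lama1, at 49.2 CPM. Cisplatin 1 was the only treated library with counts of Col19a1, at 0.182 CPM, and cisplatin 3 was the highest for Col17a1, at 3.02 CPM. Both of the last rest on few counts.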

How the results depend on the processing

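The count of up-regulated members was 16 to 20 and that of down-regulated members 5 to 6 when 1 library was left out. With DESeq2 20 and 5 members were called, with no filter on low counts 19 and 5, and with at least 10 counts in every library 16 and 4 of 35 tested. A test against a log2 FC of 1 called 12 members up-regulated, and among all genes 885 up-regulated and 803 down-regulated in place of 1754 and 1434. The up-regulated members that lost their call in it were Col4a2, Thbs1, Fbn1, Col12a1, Col5a1, Col11a2 and Col8a2. Its adjusted P was 0.0745 for Col4a2 and 0.0762 for Thbs1, against 0.138 for Fbn1 and 0.302 for Col12a1. The calls of Col5a1, Col11a2 and Col8a2 were close to the threshold with all libraries (adjusted P = 0.038, 0.033 and 0.045 in edgeR). Each was lost without any 1 of several libraries, at the log2 FC given. Col5a1 lost its call without any of control 1, 3 or 5 or cisplatin 1, 3 or 6 (log2 FC 1.29 to 1.78), Col11a2 without any of control 1, 2 or 3 or cisplatin 3, 4 or 6 (0.99 to 1.18), and Col8a2 without any of control 1, 3 or 5 or cisplatin 1 or 4 (1.13 to 1.58). Col8a2 was also not called without cisplatin 1 and 3, with no filter or with a mean of at least 10 counts (adjusted P = 0.134, 0.0711 and 0.0518 in edgeR), and Col5a1 and Fbn1 were not called without cisplatin 1 and 3. Col23a1 lost its call with total library size (-0.98), the replicate block (-0.98) and the test against a log2 FC of 1. Fbln1, Col8a1 and Itga9 were called without cisplatin 4, at 1.73, 1.26 and 1.04. Col4a3bp was called down-regulated without control 5 (-1.05), cisplatin 1 (-1.01) or cisplatin 3 (-1.03). The cause of these changes was not tested.

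Directions turned mainly for members near 0. With total library size the log2 FC was 0.47 for Itgb5, 0.18 for Col5a2, 0.052 for Nid2, 0.22 for Lama2, 0.26 for Itgb2 and 0.30 for Itgae. Col24a1 was at -0.013 with DESeq2, -0.0071 with its size factors in edgeR and -1.05 without cisplatin 1 and 3, and between -0.63 and 0.30 when 1 library was left out. Itgb5 was between -0.23 and 0.0086 in the same way. In the first library set alone Itgb5 was at 0.12 and Itgae at 0.33. Without cisplatin 1 and 3, Lama2 was at -1.03, Nid1 at 0.20, Col17a1 at 1.95, Col23a1 at -2.21, Col6a3 at -0.51, Col4a6 at -0.021, the ratio of Lama1 to Lama5 differed by -5.3 that of Col1a1 to Col3a1 by -0.35 and that of Col1a1 to Col4a1 by 0.71.

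Both groups have a replicate 1 and a replicate 3, and same-numbered libraries deviated from their group means with r = 0.25 and 0.28 over genes, but 2 such numbers do not show that the numbers pair the mice. With the replicate number as a block, 22 members were up-regulated and 4 down-regulated, the basement membrane median lay 1.60 below the fibrillar median (-1.60), the ratio of Lama1 to Lama5 differed by -3.10 and that of Col1a1 to Col4a1 by 2.48, and the log2 FC was 0.20 for Itgb5, 0.32 for Lama2 and 0.56 for Itgae. Col6a3, Col4a6 and Fbln1 were called up-regulated with the block, at 1.70, 1.14 and 2.35. Depth limits the low members most, such as Col17a1 and Col19a1, where a few counts set the value.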
